A study of Mus musculus with 20 samples.

Results

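Genes of the major histocompatibility complex (MHC) class II pathway were followed in endothelial cells of the mouse sciatic nerve, before and after injury and with and without the semaphorin receptor Plxnd1. They were picked by symbol, although with earlier results of these data known: H2-Aa, H2-Ab1, H2-Eb1, H2-DMa, Cd74 and Ciita, 6 of the 55376 genes in the count tables. Bulk polyA RNA came from pooled adult nerves, from cells sorted as positive for a red reporter and negative for the leukocyte surface protein CD45. In the Tomato experiment all mice carried Cdh5(PAC)-CreERT2, an inducible Cre driven by an endothelial promoter, and the R26-TomatoLSL reporter; intact nerve gave 5 libraries, and the tissue bridge at the lesion gave 5 on day 7 post injury (7 dpi) and 4 on day 14 (14 dpi). The Cherry experiment, all on 7 dpi bridges, sorted cells marked by Kdr-Cherry, a reporter of a vascular growth factor receptor gene: 3 libraries of controls (WT) and 3 of Cdh5::CreER; Plxnd1 fl/fl mice (KO). The labels name the injury a crush while the series text speaks of a bridge, and whether the Cherry controls carried Cre is not given in the sources used here. No label says that libraries of a group came from separate animals, and the p-values therefore reflect only library-to-library spread, which may be technical.

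MHC class II molecules are paired alpha and beta chains that show peptides from engulfed proteins to CD4+ T cells. The invariant chain Cd74 escorts the new pair through the cell and blocks its groove, endosomal proteases cut Cd74 away, and H2-DM helps exchange the remaining fragment for a peptide. Ciita is the coactivator that switches the whole set on, together with factors that bind the class II promoters. Professional antigen-presenting cells (macrophages, dendritic cells and B cells) make these genes in quantity, while endothelial cells make them under interferon gamma.

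H2-Aa encodes the I-A alpha chain, H2-Ab1 the I-A beta chain, H2-Eb1 the I-E beta chain and H2-DMa the H2-DM alpha chain. In the deposited tables (GRCm38), H2-Aa spans chromosome 17, 34282744 to 34287823, on the minus strand, and H2-Ab1 spans 34263209 to 34269419 on the plus strand. H2-Eb1 lies at 34305867 to 34316674 and H2-DMa at 34122832 to 34139101, both on the plus strand of the same chromosome, within the MHC. Ciita lies at 10480059 to 10528418 on the plus strand of chromosome 16. Ciita overlaps Dexi on the opposite strand, a gene with 2866 counts over the 14 Tomato libraries. The strand setting of the counting is not given in the sources used here, so reads of Ciita and Dexi in the shared stretch may not be told apart.

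The RefSeq promoter table (GRCm38.p6) matched 3 of the 6 members, H2-Aa, H2-Eb1 and H2-DMa. The sequences below are shown because H2-Aa and H2-Eb1 share an arrangement of letters known from class II promoters. They are 5′ to 3′ on the gene's strand, and the capitals mark GCAAC, letters of the X box that RFX proteins bind, and ATTGG, the reverse complement of the CCAAT of the Y box that NF-Y binds. The H2-Aa stretch is chr17:34287852-34287919, minus strand, and the H2-Eb1 stretch is chr17:34305761-34305827, plus strand.
H2-Aa: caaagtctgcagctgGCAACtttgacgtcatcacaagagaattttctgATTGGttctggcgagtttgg
H2-Eb1: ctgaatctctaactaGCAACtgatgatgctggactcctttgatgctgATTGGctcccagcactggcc
Counted from the annotated start, GCAAC begins at -81 in H2-Aa and -91 in H2-Eb1, and ATTGG begins at -48 and -59. The gap between them is 28 and 27 bases. GCAAC followed after 25 to 30 bases by ATTGG, searched on both strands in the 250 bases before each start, was found in 78 of 32851 promoters (0.237%), and in neither of the 2 start sites of H2-DMa. This search pattern was written after these promoters had been read. Among other class II genes in the table it was present in H2-Oa, H2-Ob and H2-Eb2 and not in H2-DMb1 and H2-DMb2. Alone, GCAAC was in 29.9% of promoters and CCAAT in 33.8%, both strands counted.

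Total counts ran from 19.06 to 34.18 M per library. After the low-count filter 20409 genes were tested in the Tomato experiment and 16227 in the Cherry experiment, and all 6 members passed in both. Endothelial identity genes were plentiful throughout: the summed level of 8 markers was 3659 to 9764 CPM (reads of a gene after scaling each library to a common total, with TMM factors) in intact, 4961 to 7796 at 7 dpi, 4521 to 6279 at 14 dpi and 7650 to 8487 in the Cherry libraries. Plxnd1 itself was 350, 324 and 343 CPM in WT and 131.4, 160.5 and 160.1 CPM in KO, a log2 fold change of -1.23 ± 0.10 (SE; edgeR adjusted p = 1.29e-04), in the labelled direction. Markers within the endothelial sum moved in opposite ways. Cldn5 was 1779 to 4866 CPM in intact and 505 to 1013 CPM at 7 dpi. Cdh5 was 172 to 388 CPM in intact and 389 to 724 CPM at 7 dpi. RNA of other cells was present too. The summed level of 6 fibroblast markers was 8371 to 15978 CPM in intact and 3671 to 16463 CPM at 7 dpi. At 14 dpi it was 14454 to 30270 CPM, and in the Cherry libraries 672 to 2666 CPM. It exceeded the endothelial sum in every 14 dpi library, every intact library but replicate 2 and every 7 dpi library but replicate 3. Such sums are over different genes and do not give shares of cells. In macrophage genes 2 libraries stood apart: 7 dpi replicate 4 and 14 dpi replicate 3 held 245 and 778 CPM of Lyz2, the lysozyme of macrophages and neutrophils, against 1.22 to 23.8 CPM in the other 12 Tomato libraries. C1qa, a complement gene of tissue macrophages, was 7.71 and 36.6 CPM in those libraries and 0 to 1.6 CPM in the others. The Tomato comparisons are therefore also given without them. RNA of 4 Y-linked genes, summed, was 40.1 to 239.6 CPM in the intact libraries, 216 CPM in 7 dpi replicate 1 and 0 to 0.0291 CPM in the other 4 at 7 dpi, and at 14 dpi 268 and 182 CPM in replicates 1 and 2 and 0 in replicates 3 and 4. These sums moved with the groups. In bulk RNA, fewer cells of a type and less RNA per cell cannot be told apart.

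All 6 class II genes fell between intact nerve and the bridge at 7 dpi. H2-Aa and Cd74 fell the most, by 4.27 and 3.98 on the log2 scale, and Ciita and H2-DMa the least, by 1.56 and 1.39. In the same fit 16.3% of all tested genes were called lower, 15.7% higher and 32% in either direction (edgeR quasi-likelihood F test, Benjamini-Hochberg adjusted p under 0.05). The median log2 fold change was -2.57 over the members and -0.10 over all tested genes. The groups did not overlap for 3 members, H2-Aa, H2-Ab1 and H2-DMa, against 10.6% of all genes that lay wholly lower at 7 dpi.

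H2-Aa was 37.0, 14.8, 9.33, 5.71 and 5.73 CPM in intact replicates 1 to 5, and 0.256, 0.639, 0.292, 5.02 and 1.05 CPM in 7 dpi replicates 1 to 5. Intact replicate 1 was the highest, 7 dpi replicate 4 was the highest of its group, and the lowest intact library stayed above it. On the log2 scale the change was -4.27 ± 1.18 (SE; adjusted p = 0.0138 by edgeR). H2-Ab1, its partner chain, was 34.9, 15.8, 11.7, 7.65 and 8.69 CPM in intact and 2.25, 1.43, 1.83, 6.01 and 1.40 CPM at 7 dpi. The same libraries were the highest of their groups, and the groups did not overlap. The log2 fold change of H2-Ab1 was -2.84 ± 0.84 (edgeR adjusted p = 0.0175).

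H2-Eb1 was 23.8, 8.42, 6.74, 6.83 and 4.48 CPM in intact and 2.66, 1.03, 1.04, 5.26 and 1.83 CPM at 7 dpi. Here 7 dpi replicate 4 lay above intact replicate 5, so the groups overlapped by 1 library. Its log2 fold change was -2.30 ± 0.67 (edgeR adjusted p = 0.0143). Cd74, the invariant chain, was 87.6, 24.3, 11.8, 13.1 and 6.94 CPM in intact and 1.79, 0.295, 1.42, 9.22 and 1.42 CPM at 7 dpi. Again only 7 dpi replicate 4 reached into the intact range. The log2 fold change of Cd74 was -3.98 ± 1.27 (edgeR adjusted p = 0.0325).

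H2-DMa, a chain of the peptide exchange factor, was 10.5, 5.78, 5.90, 4.56 and 4.08 CPM in intact and 3.27, 0.885, 2.21, 2.45 and 3.26 CPM at 7 dpi. Every 7 dpi library lay below every intact library, and 7 dpi replicate 4 was not among the high ones. Its log2 fold change was -1.39 ± 0.41 (edgeR adjusted p = 0.0143). Ciita, the coactivator, was 3.82, 1.6, 1.41, 1.56 and 5.17 CPM in intact and 0.716, 0.639, 0.583, 0.712 and 2.09 CPM at 7 dpi. Its high libraries were others: intact replicate 5 led its group, and 7 dpi replicate 5, not replicate 4, reached into the intact range. The log2 fold change of Ciita was -1.56 ± 0.47 (edgeR adjusted p = 0.0161), and that of the overlapping Dexi was 0.06 ± 0.19 (adjusted p = 0.858).

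**Figure D1:**
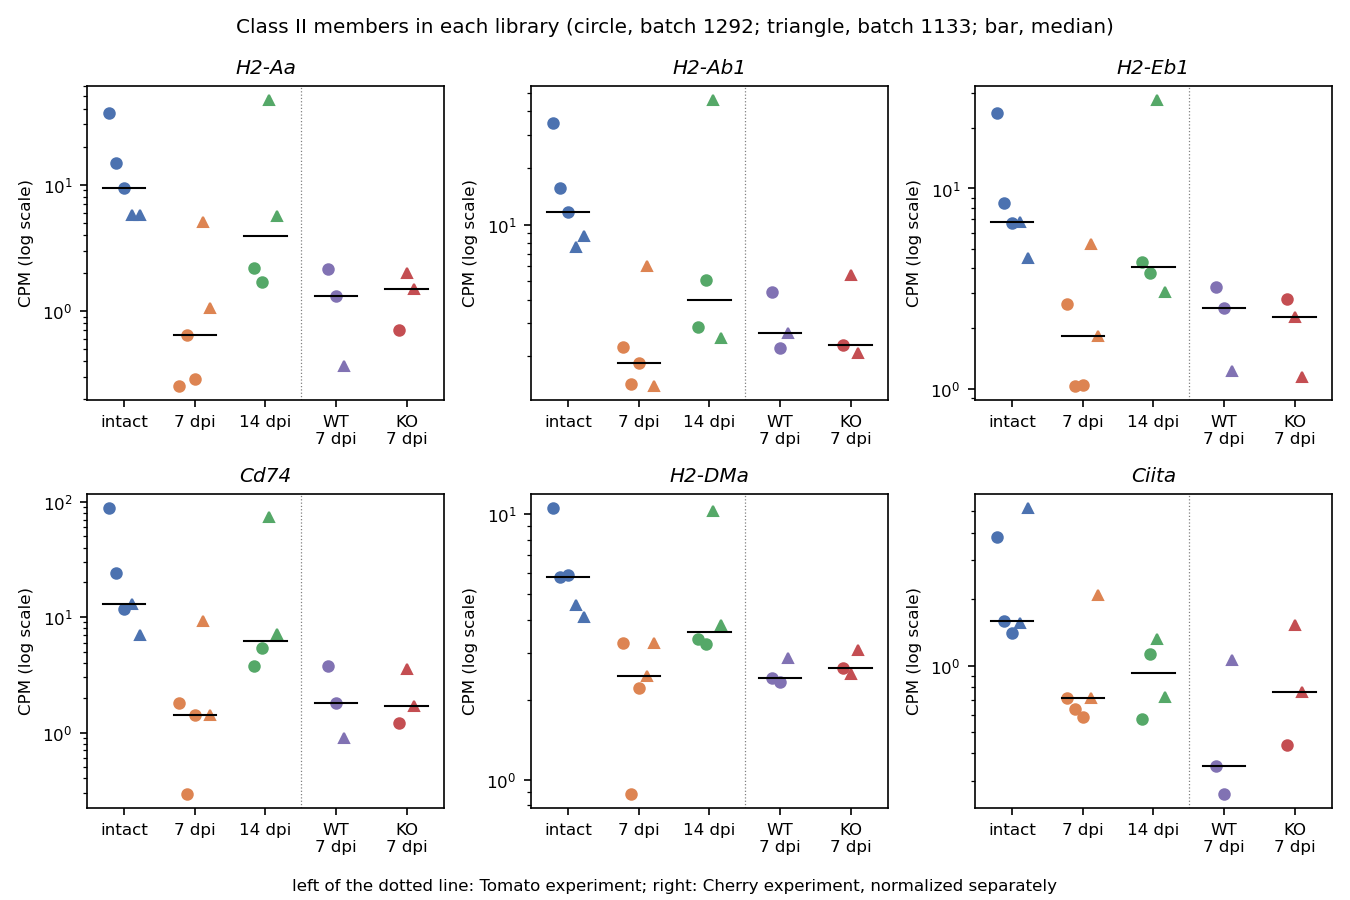
CPM of each class II member (y axis, log scale) in every library, by group (x axis); circles are batch 1292, triangles batch 1133 and bars group medians. Intact libraries lie highest for most members, 7 dpi libraries lowest, and 14 dpi replicate 3 is a single high point for H2-Aa, H2-Ab1, H2-Eb1, Cd74 and H2-DMa.

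Libraries were labelled with 1 of 2 batches, 1133 and 1292. In batch 1292 alone (3 libraries of each group) all 6 members were called lower, with a median log2 fold change of -3.27. In batch 1133 alone (2 of each) none was called, also at an unadjusted p under 0.05, although all 6 estimates were below 0 with a median of -0.91. Batch 1133 holds 7 dpi replicate 4, and its intact libraries averaged 5.72 CPM of H2-Aa against 20.4 CPM in batch 1292. Without 7 dpi replicate 4 and 14 dpi replicate 3 the count was 5 of 6, Ciita being the one lost (edgeR adjusted p = 0.055), and without intact replicate 1 as well it was 4. With the Y-linked genes as a covariate, an alternative chosen after seeing the data, it was 5, Ciita again being lost (edgeR adjusted p = 0.079). Their part in the result was not tested further. Leaving out 7 dpi replicate 3 left 3 members called, with edgeR adjusted p = 0.0522 for H2-Aa, 0.0597 for H2-Ab1 and 0.0872 for Cd74. Cd74 also lost its call without 7 dpi replicate 1 (adjusted p = 0.0722), 2 (0.0757) or 5 (0.0511), and Ciita without intact replicate 1 (0.0639) or 5 (0.0578), in the same edgeR test.

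Most macrophage genes were near the floor in intact nerve, where a fall can hardly be seen, and none was called lower at 7 dpi. Of 14 markers tested, none was called at 7 dpi by edgeR (1 by DESeq2), and their median log2 fold change was 1.41. The edgeR count was 1 without intact replicate 1 or 5, 2 without intact replicate 2 and 3 without 7 dpi replicate 5. In intact nerve their summed level was 18.4 to 22.8 CPM and C1qa was at 0 in replicates 1 and 3, while at 7 dpi the sum was 14.5 to 336 CPM. Lyz2 was 6.27, 4.75, 6.40, 8.97 and 1.22 CPM in intact and 6.70, 2.85, 13.8, 245 and 16.8 CPM at 7 dpi. The sum of H2-Aa, H2-Ab1, H2-Eb1 and Cd74 was 3.71 to 29.2 times Lyz2 in the intact libraries, and 0.104 to 1.19 times at 7 dpi, lowest in 7 dpi replicate 4. These ratios of CPM are not per length and are read only between libraries. With a macrophage covariate, made of Lyz2, C1qa, C1qb and C1qc only, all 6 members were still called lower. Their median log2 fold change was -3.30.

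Perineurial genes were lower at 7 dpi as well. All 6 perineurial markers, among them the tight junction gene Cldn1, were called lower at 7 dpi with a median log2 fold change of -2.63, and their summed level went from 2386 to 5199 CPM in intact to 281 to 948 CPM at 7 dpi, with no overlap. With these markers as a covariate no class II member was called by edgeR, nor at an unadjusted p under 0.05, and 874 of all 20409 genes were, while the members' median stayed at -1.97. The SE grew from 1.18 to 3.345 for H2-Aa and from 1.27 to 3.496 for Cd74. Because the perineurial sums of intact and 7 dpi did not overlap, this fit cannot tell a group difference from perineurial RNA, for these or other genes. Of the other lists, 5 of 6 mural and 3 of 5 Schwann markers were called lower, 3 of 6 fibroblast markers higher and 1 lower, and 1 of 4 lymphatic endothelial markers lower. Of the endothelial markers 6 of 8 were called higher and 1 lower. Dendritic cell markers gave 0 of 6 calls and B cell markers 1 of 3, lower, while no T cell marker passed the filter. The part of these cells in the class II values was not tested.

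**Figure D2:**
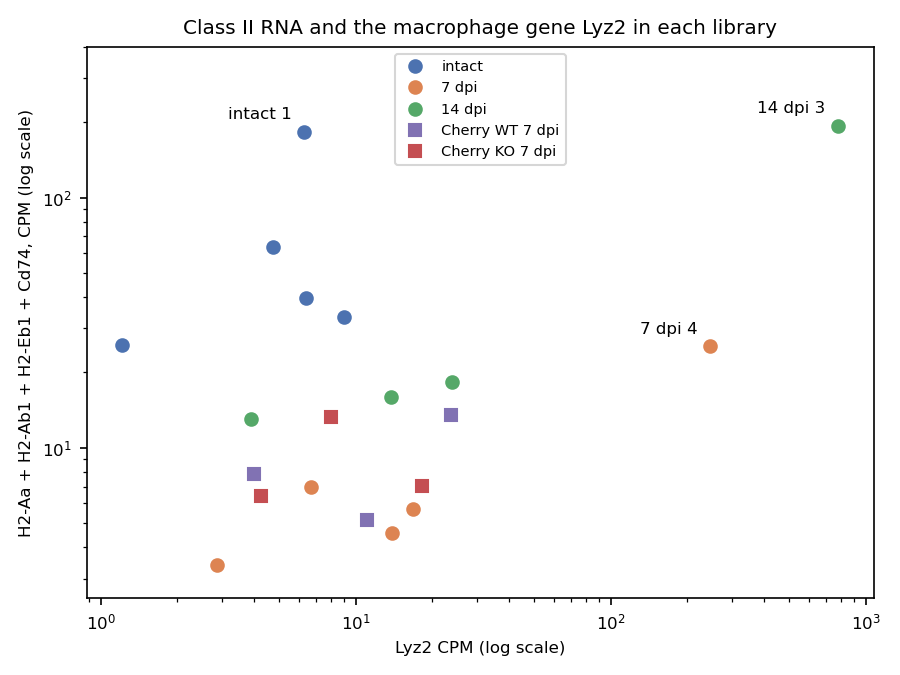
Summed CPM of H2-Aa, H2-Ab1, H2-Eb1 and Cd74 (y axis, log scale) against Lyz2 CPM (x axis, log scale), 1 point per library; squares are the Cherry libraries. Intact replicate 1 and 14 dpi replicate 3 have like class II sums, 183 and 194 CPM, at Lyz2 levels of 6.27 and 778 CPM.

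Intact replicate 1 and 14 dpi replicate 3 show how far these readouts can part. Both held the most class II RNA of their groups, with Cd74 at 87.6 and 74.0 CPM. Intact replicate 1 had 6.27 CPM of Lyz2, no C1qa count, 0.0367 CPM of Ptprc (the gene of CD45) and 0.0367 CPM of Itgax, an integrin of dendritic cells. In 14 dpi replicate 3 the same genes were at 778, 36.6, 8.40 and 10.5 CPM. Some other markers of these cells were not low in intact replicate 1. Cd68 was 8.88 CPM there, the dendritic cell gene Clec9a 7.67 CPM and the macrophage sum 22.8 CPM, each the highest of the intact group. In 14 dpi replicate 3 these were at 52.8, 6.56 and 1161 CPM. Further markers were low in intact replicate 1. The dendritic cell genes Xcr1, Flt3 and Cd209a were at 0.0367, 0 and 0 CPM there, and the macrophage gene Adgre1 at 0.0367 CPM. In 14 dpi replicate 3 they were at 0.0602, 0.211, 0.903 and 22.7 CPM. Ciita was 3.82 CPM in intact replicate 1 and 1.32 CPM in 14 dpi replicate 3. Intact replicate 5, the library with the most Ciita, held 3.19 CPM of Ptprc, 2.76 CPM of the dendritic cell receptor Xcr1 and 8.36 CPM of summed B cell markers, each the highest of the intact group. Its summed T cell markers, at 1.94 CPM, were the highest too. Other genes of these lists went the other way there: Clec9a at 3.78 CPM, the B cell gene Cd79a at 2.90 CPM and Lyz2 at 1.22 CPM were the lowest of the group. The part of such cells in its Ciita level was not tested.

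At 14 dpi none of the 6 class II genes passed the test against intact nerve. Over all genes 12% passed, 5.09% lower and 6.86% higher. One, Ciita, had an unadjusted p under 0.05, and DESeq2 called 1, Ciita as well. H2-Aa was 2.18, 1.70, 46.6 and 5.64 CPM in 14 dpi replicates 1 to 4, and H2-Ab1 was 2.86, 5.06, 45.8 and 2.51 CPM. Replicate 3 exceeded every intact library in both genes, and the other 3 libraries lay below every intact library. The log2 fold changes against intact were -1.34 ± 1.25 for H2-Aa (edgeR adjusted p = 0.617) and -0.60 ± 0.92 for H2-Ab1 (adjusted p = 0.798).

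Cd74 was 3.74, 5.36, 74.0 and 7.07 CPM at 14 dpi and H2-Eb1 was 4.31, 3.78, 27.6 and 3.05 CPM, with log2 fold changes against intact of -1.25 ± 1.36 and -0.39 ± 0.72 (edgeR adjusted p = 0.687 and 0.841). H2-DMa was 3.38, 3.25, 10.2 and 3.80 CPM, a log2 fold change of -0.33 ± 0.44 (edgeR adjusted p = 0.75). Replicate 3 was the high library each time. Ciita was 0.571, 1.13, 1.32 and 0.718 CPM, below all 5 intact libraries, where 4.73% of all genes lay wholly lower. Its log2 fold change was -1.56 ± 0.50 (edgeR adjusted p = 0.0535), and the call was made without intact replicate 3 (adjusted p = 0.0476) or 4 (0.0259).

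**Figure D3:**
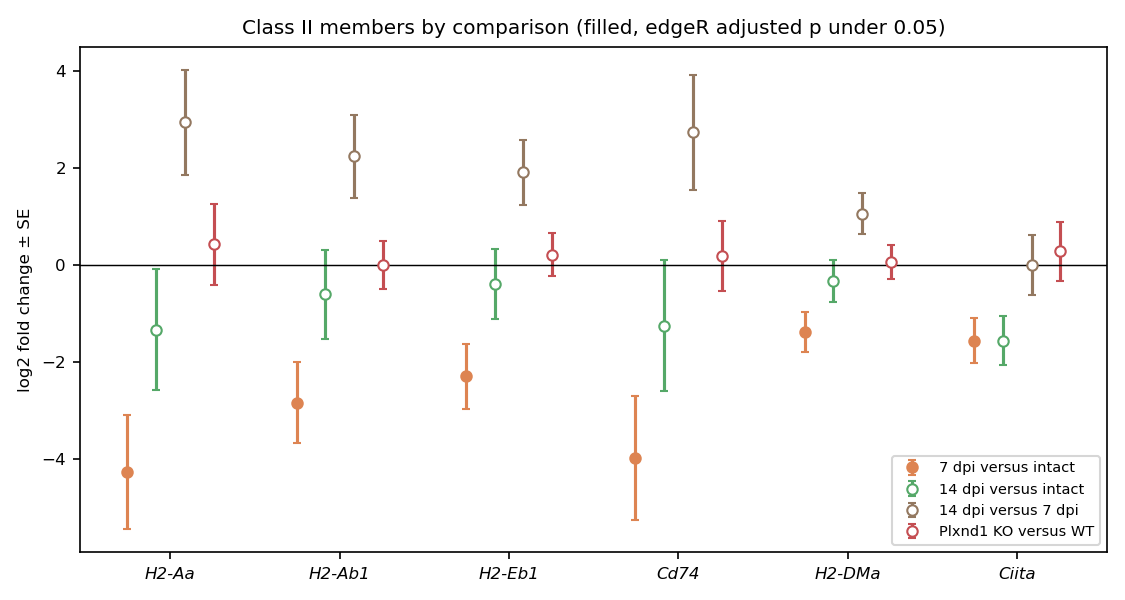
Log2 fold change ± SE (y axis) of the class II members (x axis) in the 4 comparisons; filled points passed the edgeR test. All 6 members pass for 7 dpi against intact, from -4.27 to -1.39, and none passes in the other 3 comparisons.

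The 14 dpi result turned on the libraries used. Without 14 dpi replicate 3, H2-Ab1 was called lower than intact at a log2 fold change of -2.18 (edgeR adjusted p = 0.024). With the same macrophage covariate 4 members were called lower (Cd74, H2-Aa, H2-Ab1 and H2-Eb1), at a median over the 6 of -2.33. In batch 1292 alone, 2 libraries against 3, 3 were called lower (Cd74, H2-Aa and H2-Ab1) at a median of -2.05. In batch 1133 alone, which holds replicate 3, the median was 1.57 and 5 of the 6 estimates were above 0, with no call. Of 14 macrophage markers, 4 were called higher at 14 dpi (C1qa, C1qb, Adgre1 and Tyrobp), with the summed macrophage level at 19.99 to 1161 CPM, and this count was 0 without 14 dpi replicate 3 or without intact replicate 4. It was 1 without intact replicate 5 or 14 dpi replicate 2, and 2 without intact replicate 1 or 3.

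Between 7 and 14 dpi no member passed the test either, against 9.93% of all genes (5.73% higher at 14 dpi). An unadjusted p under 0.05 was seen for 5, and DESeq2 called 1, H2-Aa. The log2 fold changes of those 5, 14 dpi against 7 dpi, were 1.05 for H2-DMa, 1.91 for H2-Eb1, 2.24 for H2-Ab1, 2.73 for Cd74 and 2.94 for H2-Aa, with edgeR adjusted p from 0.0908 to 0.202. Ciita stood at 0.00 ± 0.62 (edgeR adjusted p = 0.999). Without 14 dpi replicate 3 the 5 estimates were 0.51 for H2-DMa, 0.61 for H2-Eb1, 0.33 for H2-Ab1, 0.99 for Cd74 and 1.27 for H2-Aa. Without it and 7 dpi replicate 4 edgeR called none, at a median log2 fold change over the members of 1.12, and without intact replicate 1 as well it called 2, Cd74 and H2-Aa, higher at a median of 1.11. Markers of other cells were higher at 14 dpi too: 5 of 6 perineurial, 4 of 5 Schwann and 3 of 6 fibroblast markers were called. With the perineurial markers as a covariate no member had an unadjusted p under 0.05, and the median was 1.40. The perineurial sums of 7 and 14 dpi, 281 to 948 and 1271 to 2903 CPM, did not overlap either, so this fit cannot tell day from perineurial RNA. These 3 Tomato comparisons share their libraries and are not independent.

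In the Cherry experiment, class II RNA at 7 dpi was low in both genotypes. H2-Aa was 2.14, 1.31 and 0.368 CPM in WT and 0.713, 2.01 and 1.48 CPM in KO. Cd74 was 3.74, 1.80 and 0.899 CPM in WT and 1.21, 3.58 and 1.71 CPM in KO. The groups overlapped for these genes, as for all 6 members, while those of 11.8% of all genes did not. H2-Ab1 was 4.40, 2.21 and 2.66 CPM in WT and 2.30, 5.44 and 2.09 CPM in KO, and H2-Eb1 was 3.23, 2.51 and 1.23 CPM against 2.80, 2.28 and 1.14 CPM. H2-DMa was the steadiest, at 2.41, 2.33 and 2.86 CPM in WT and 2.63, 2.49 and 3.07 CPM in KO. Ciita was 0.350, 0.263 and 1.06 CPM in WT and 0.439, 1.53 and 0.758 CPM in KO.

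No member passed between KO and WT by edgeR, at an adjusted or an unadjusted p under 0.05, and DESeq2 called 0, with no adjusted p for H2-Aa and Ciita. Of all tested genes 0.308% were called. The log2 fold changes, KO against WT, were 0.43 ± 0.83 for H2-Aa, 0.01 ± 0.50 for H2-Ab1, 0.21 ± 0.44 for H2-Eb1, 0.05 ± 0.35 for H2-DMa, 0.18 ± 0.73 for Cd74 and 0.28 ± 0.61 for Ciita (edgeR adjusted p from 0.886 to 0.998). The SE exceeded the estimate for all 6 members. H2-Aa and Cd74 changed sign without WT replicate 3, to -1.28 and -1.20, also with no call. Lyz2 was 23.7, 3.98 and 11.04 CPM in WT and 18.3, 8.02 and 4.25 CPM in KO. No gene of the other class II, interferon, processing, costimulatory or macrophage lists was called in this comparison.

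Levels can be set against each other between genes only per length. In intact nerve, mean CPM per kb of transcript was 20.3 ± 23.7 (SD, n = 5) for Cd74, 12.98 ± 9.20 for H2-Ab1, 12.9 ± 11.6 for H2-Aa, 6.02 ± 4.67 for H2-Eb1, 2.31 ± 0.95 for H2-DMa and 0.330 ± 0.206 for Ciita. Within the libraries Cd74, H2-Ab1 and H2-Aa changed places, while H2-Eb1 lay below them, H2-DMa below H2-Eb1 and Ciita lowest in all 5. At 7 dpi the order began with H2-Ab1 at 2.13 ± 1.61 and Cd74 at 2.00 ± 2.55 CPM per kb (SD, n = 5), with Ciita last at 0.115 ± 0.0781. In the Cherry WT libraries, normalized separately, H2-Ab1 was 2.55 ± 0.95 CPM per kb (SD, n = 3), Cd74 1.52 ± 1.02, H2-Eb1 1.39 ± 0.61, H2-Aa 1.13 ± 0.79, H2-DMa 0.950 ± 0.108 and Ciita 0.0679 ± 0.0534. H2-Ab1 was the highest and Ciita the lowest in all 3 of these libraries, and the other 4 changed places between them.

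Across the 14 Tomato libraries, H2-Aa, H2-Ab1, H2-Eb1, H2-DMa and Cd74 varied together (Pearson r of log2 CPM 0.81 to 0.96), while Ciita followed them less closely (r = 0.49 to 0.57). The members' mean had r = 0.29 with Lyz2, -0.51 with Pecam1 and -0.56 with Cdh5. These points share groups, batches and library composition, and the values are descriptions. Of 11845 genes ranked, Cd83, a surface protein of activated dendritic cells and B cells that steadies class II at the membrane, was most like the members' mean (r = 0.95). Cd83 was 16.2, 11.7, 13.3, 9.45 and 6.38 CPM in intact, 0.971, 0.639, 0.958, 3.01 and 0.611 CPM at 7 dpi, and 2.60, 1.81, 31.4 and 2.23 CPM at 14 dpi. Its high library at 7 dpi was replicate 4 and at 14 dpi replicate 3, as for H2-Aa, H2-Ab1, H2-Eb1 and Cd74. After it came Tacc2 (r = 0.91), Ccdc137 (0.90), Slc22a5 (0.89), Zfp395 (0.88), Foxn3 (0.87), Tspyl2 (0.87) and Fam76a (0.87).

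The remaining class II genes were few. The tables hold 6, of which 3 were tested, and H2-DMb1, the partner chain of H2-DMa, fell at 7 dpi by 1.18 ± 0.34 on the log2 scale (edgeR adjusted p = 0.0141). H2-DMb1 was 14.6, 10.5, 6.89, 7.89 and 5.59 CPM in intact and 5.21, 3.49, 1.96, 5.30 and 4.94 CPM at 7 dpi, without overlap. H2-Ob, a chain of the H2-DM inhibitor H2-O, was at -0.11 ± 0.36 (edgeR adjusted p = 0.859). The 7 promoter factors (Rfx5, Rfxap, Rfxank, Nfya, Nfyb, Nfyc and Creb1) had a median log2 fold change of 0.00 at 7 dpi and 0 calls by edgeR, with 2 at an unadjusted p under 0.05 (Rfx5 at -0.59 ± 0.23 and Nfya at 0.64 ± 0.25) and 2 calls by DESeq2. One of the 7 was called by edgeR without intact replicate 1, 2 or 4 or without 7 dpi replicate 3. The ligases March1 and March8, which send class II for degradation, gave no call, with log2 fold changes of -0.36 ± 1.00 and -0.22 ± 0.13.

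Interferon gamma targets were mostly lower at 7 dpi. Of 13, 9 were called lower and 2 higher, with a median log2 fold change of -0.85, against 16.3% and 15.7% of all genes. In batch 1133 alone, or with the perineurial covariate, 2 were called lower and none higher. The largest fall was that of Gbp5, a guanylate-binding protein: 30.0, 17.6, 15.2, 22.4 and 15.4 CPM in intact against 4.75, 3.39, 3.46, 3.44 and 5.12 CPM at 7 dpi. Its groups were far apart, and 7 dpi replicate 4 did not stand out as it did for H2-Aa, H2-Ab1 and Cd74. Its log2 fold change was -2.31 ± 0.23 (edgeR adjusted p = 9.81e-07). Gbp4 fell by 1.43, Igtp, an immunity-related GTPase, by 1.40 and Gbp6 by 1.37. The chemokines Cxcl9 and Cxcl10 rose by 1.00 and 1.17 on the same log2 scale. Nlrc5, the class I counterpart of Ciita, was not called.

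In the signalling list, the kinases Jak1 and Jak2 rose by 1.00 and 1.08 and the receptor chain Ifngr2 by 0.47, while the feedback inhibitor Socs1 fell by 0.89 on the log2 scale, 4 of 7 called in all, against 1 in batch 1133 alone and 0 with the perineurial covariate. Irf1 was at -0.30 ± 0.19 (edgeR adjusted p = 0.288). Ifng itself had no count in 13 of the 14 Tomato libraries. At 14 dpi, 4 targets were called lower than intact (Gbp4, Gbp5, Igtp and Irgm2) and 2 higher (Cxcl9 and Cxcl10), and 4 were called higher than at 7 dpi: Gbp4, Gbp5, Igtp and Iigp1, by 0.70 to 1.28 on the log2 scale. In batch 1133 alone the 6 called against intact became 1 and with the perineurial covariate 2, and those called against 7 dpi became 0 in both. Irf1 and Socs1 rose over the same interval by 0.81 and 1.20, and Jak1 fell by 0.48. The 14 dpi signalling count against intact was 2 (Jak1 and Jak2, higher), and 4 without intact replicate 2.

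**Figure D4:**
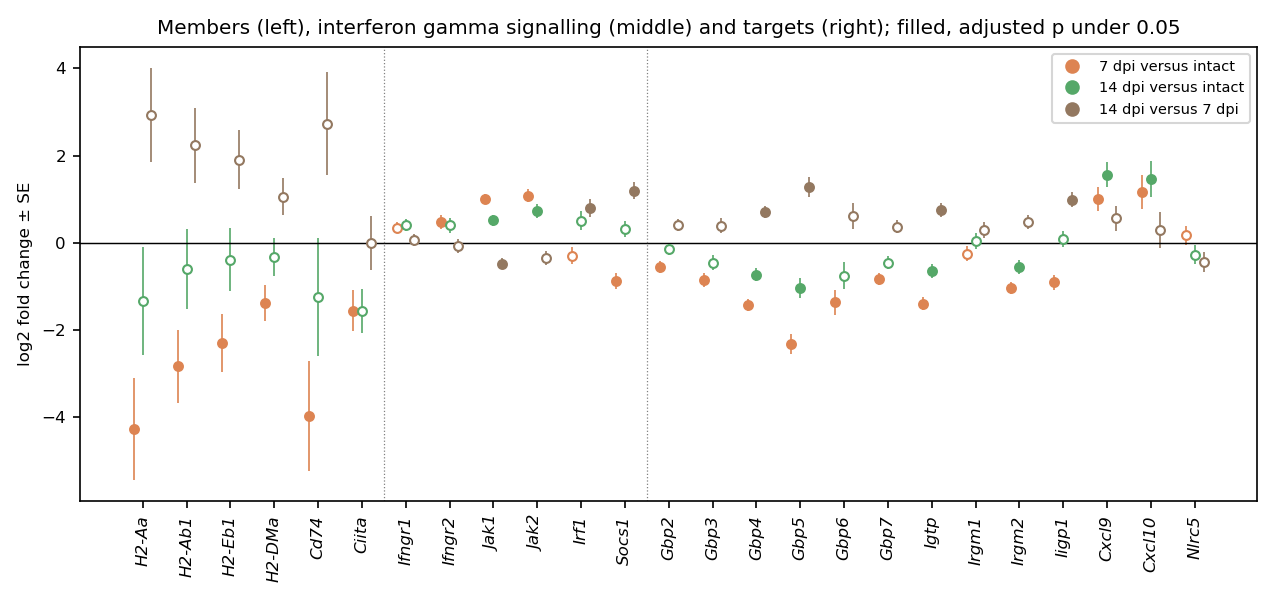
Log2 fold change ± SE (y axis) of the class II members and of interferon gamma signalling and target genes (x axis) in the 3 Tomato comparisons; filled points passed the edgeR test. Most targets lie below 0 at 7 dpi, down to -2.31 for Gbp5, while Jak1, Jak2, Cxcl9 and Cxcl10 lie above 0.

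Enzymes that process antigen moved the other way from the chains. Of 6, 4 were called higher at 7 dpi and none lower, with a median log2 fold change of 0.96: Lgmn rose by 1.99, Ctsl by 1.09 and Ctsb by 0.83, and Ctss, the protease that finishes the cutting of Cd74 in presenting cells, by 6.18 ± 1.62 (edgeR adjusted p = 0.0113). Ctss was 0, 0.103, 0.152, 0.204 and 0.296 CPM in intact, 1.89, 0.590, 2.46, 40.4 and 2.59 CPM at 7 dpi, and 0.779, 2.83, 188 and 4.92 CPM at 14 dpi. Its highest libraries, 7 dpi replicate 4 and 14 dpi replicate 3, were those with the most Lyz2, and the intact values rest on a few counts, but the groups did not overlap without them either. In batch 1133 alone, or with the perineurial covariate, 2 of the 6 were called. Lgmn, Ctsl and Ctss were called higher at 14 dpi against intact.

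In the list of costimulatory ligands and related surface genes, Cd40 rose and Cd274 and Icosl fell. Cd40, a receptor through which T cells activate presenting cells, was 6.05, 6.51, 3.62, 4.96 and 3.16 CPM in intact and 20.1, 26.3, 26.7, 13.8 and 11.6 CPM at 7 dpi, a log2 fold change of 1.98 ± 0.23 (edgeR adjusted p = 6.02e-06). Cd274, the ligand PD-L1, was 34.4, 32.1, 32.6, 16.05 and 15.1 CPM in intact and 8.64, 6.59, 7.87, 4.04 and 2.53 CPM at 7 dpi. Neither gene's groups overlapped, and the log2 fold change of Cd274 was -2.16 ± 0.18 (edgeR adjusted p = 1.13e-07). Icosl fell by 1.61 on the log2 scale. Cd80 and Cd86, the classical ligands of CD28, averaged 0.444 and 0.309 CPM in intact and were not called. At 14 dpi Cd274 and Icosl were still called lower than intact, by 1.27 and 0.87, and this count was 1 without 14 dpi replicate 2.

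**Figure D5:**
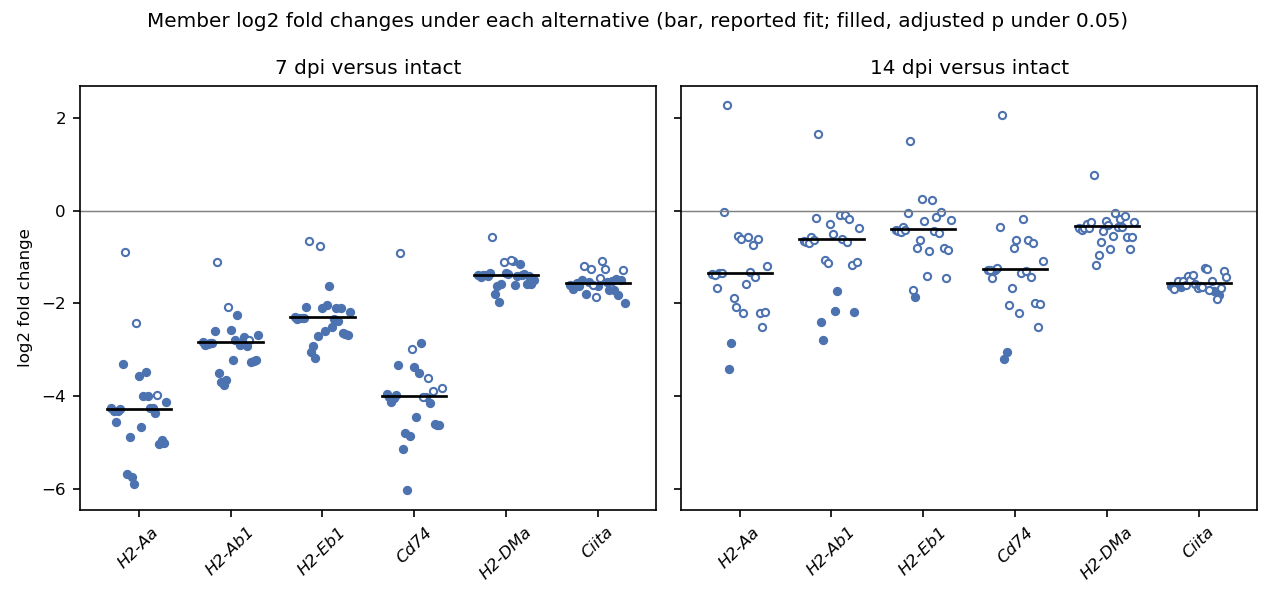
Log2 fold change (y axis) of each member (x axis) at 7 dpi and 14 dpi against intact in the reported fit (bar) and under each alternative (points, filled where the adjusted p was under 0.05). At 7 dpi every point lies below 0; at 14 dpi the points of batch 1133 alone lie above 0 for 5 of the 6 members.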

How the data were processed

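Bulk RNA-seq of 20 libraries was analysed (14 Tomato, 6 Cherry). The deposited values are unnormalized whole-number read counts for each gene, per the file headers, with a table for each experiment, and a table of Cherry counts corrected with ComBat-Seq. Trimmomatic 0.39, featureCounts 1.6.4, STAR 2.5.3a and Cell Ranger 3.0.2, with build mm10 (GRCm38), are listed in the submitters' processing notes. How multi-mapped reads and strand were handled is not given in the sources used here, so chains with similar sequence may share reads. Counts were tested as deposited with edgeR 4.0.16 (R 4.3.3): filterByExpr, TMM, robust quasi-likelihood F test, batch in every model, Benjamini-Hochberg adjustment over all tested genes, 0.05 as the threshold. The 14 Tomato libraries shared a fit and the 6 Cherry libraries had their own, so levels across them are descriptions. SE is the absolute log2 fold change over the square root of F. CPM values are TMM-scaled, and CPM per kb divides by the length column that the authors deposited beside the counts. Markers of other cells entered as covariates as the mean log2(CPM + 1) of the list. For macrophages only Lyz2, C1qa, C1qb and C1qc of the list were used. Over 32 pairs within groups, replicates differed beyond sampling noise (chi-square per degree of freedom 15.4 to 121). Likeness is Pearson's r over 14 libraries with the mean log2 CPM of the members (prior count 2), where the average log2 CPM reached 1, and the 8 highest are named, leaving out bare gene models. All members and any gene of the lists could be named. Dexi, Ptprc, Itgax, Xcr1, Flt3, Cd209a, Adgre1, Cd68, Clec9a, Cd79a, Cldn5 and Cdh5 values were chosen after they were seen. The members and lists were chosen with earlier results of these data known. Alternatives were other scalings and filters, DESeq2 1.42.0, each batch, marker covariates and left-out libraries. The fits were also run on simulated counts with known changes. Those counts had no batch effect and no library with added RNA of other cells, so they cannot test dependence on either. A gene of the signalling list is not reported here by name and is left out of its plot.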

Additional observations from a re-analysis of the deposited data

Results flagged for a closer look

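Within groups of 4 or 5 libraries, a library was taken as standing apart where its gap to the nearest other exceeded Dixon's critical value, which chance does in about 1 of 20 groups. In 14 dpi replicate 3 this held for H2-Aa (46.61 CPM, next highest 5.635), H2-Ab1 (45.8 CPM), H2-Eb1 (27.59 CPM), H2-DMa (10.23 CPM) and Cd74 (73.96 CPM), and for the macrophage genes Lyz2 (777.8 CPM) and C1qa (36.62 CPM), but not for Ciita. In 7 dpi replicate 4 it held for H2-Aa (5.024 CPM), H2-Ab1 (6.013 CPM) and Cd74 (9.217 CPM), again with Lyz2 (244.6 CPM) and C1qa (7.714 CPM). In intact replicate 1 it held for H2-Eb1 (23.78 CPM), H2-DMa (10.49 CPM) and Cd74 (87.63 CPM), and there Lyz2 was 6.27 CPM with no C1qa count. Ciita stood apart in 7 dpi replicate 5 (2.094 CPM, next highest 0.7156). These genes share libraries, so the values are not independent of each other, and the part of macrophage RNA in them was not tested.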

How the results depend on the processing

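No paired analysis was possible because the labels give no replicate numbers shared between groups. The 7 dpi count of 6 members was 0 in batch 1133 alone and 0 with the perineurial covariate, 3 to 6 with single libraries left out, and within 1.5 times of 6 otherwise; all estimates stayed below 0. The 14 dpi count against intact (0 reported) was 1 with RLE size factors, DESeq2, the 1 CPM filter and either set of excluded libraries, 2 with no low-count filter, 3 in batch 1292 alone, 4 with the macrophage covariate, and 0 to 1 with single libraries left out. The count between 14 and 7 dpi (0 reported) was 1 with DESeq2, the macrophage or Y-gene covariate or only the 2 groups, 2 without 7 dpi 4, 14 dpi 3 and intact 1, 4 with the endothelial covariate, 5 with no low-count filter, and 0 with any single library left out. The KO count was 0 throughout. The Y-gene covariate and the 2 sets of excluded libraries were chosen after seeing the data; the cause of these changes was not tested.

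Signs turned only for estimates that passed in neither fit. At 14 dpi against intact, batch 1133 alone gave 2.27 for H2-Aa, 1.64 for H2-Ab1, 1.495 for H2-Eb1, 0.77 for H2-DMa and 2.06 for Cd74; H2-Eb1 was 0.25 with the perineurial covariate and -1.45 to 0.23 over left-out libraries. Ciita between 14 and 7 dpi was 0.028 with no filter, 0.39 in batch 1292, 0.038, 0.021 and 0.18 with the macrophage, Y-gene and perineurial covariates, 0.0049 with only the 2 groups and -0.30 to 0.38 over left-out libraries. For KO against WT, batch 1292 alone gave -1.27 for H2-Aa, -0.52 for H2-Ab1, -0.038 for H2-Eb1 and -1.20 for Cd74, and batch 1133 alone -0.041 for H2-DMa. H2-Ab1 was -0.068 by library size, -0.0062 with no filter, -0.38 with the endothelial covariate and -0.041 on ComBat-Seq counts; H2-Eb1 was -0.17 with no batch term and -0.070 with the endothelial covariate; H2-DMa was -0.011 by library size; Ciita was -0.074 with the endothelial covariate. Over left-out libraries the KO estimates ran from -1.28 to 2.24 for H2-Aa, -0.52 to 0.51 for H2-Ab1, -0.063 to 0.49 for H2-Eb1, -0.038 to 0.15 for H2-DMa and -1.20 to 1.56 for Cd74. Ciita, H2-Oa and other genes near or below 1 CPM in many libraries rest on few counts, which limits their precision.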
